A study of Bos taurus with 15 samples.

Results

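ELF5, CDX2 and GCM1 are transcription factors of the trophoblast, and ELF5 and CDX2 also act in epithelia of the adult body. They were chosen by name: a probe belonged to the set when the scanner file named it ELF5, CDX2 or GCM1, or gave that symbol or the full gene name in its description. Each gene had 1 probe, so the set held 3 of the 15208 probes other than controls, and all 3 were among the 13161 probes that entered the tests. Transcript levels were measured in caruncular endometrium, the part of the bovine uterine lining to which the placenta attaches, of Japanese Black cows, with 1 one-color Agilent oligonucleotide array per cow.

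The cows were slaughtered on day 15 or day 18, counted from artificial insemination as day 1, and the labels call the non-pregnant cows cyclic. NP15 (n = 4) and NP18 (n = 4) were non-pregnant cows on days 15 and 18, and P15 (n = 3) and P18 (n = 4) were pregnant cows on the same days. Pregnancy was judged by eye from the presence of trophoblast in the opened uterine horn on the side of the corpus luteum, and the labels name no treatment. Neither the labels nor the methods gave the age of the cows.

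In the early embryo, CDX2, a caudal-type homeobox factor, is needed for the trophectoderm, the outer cell layer that becomes the placenta, and later for the identity of the intestinal epithelium. ELF5, an ETS-domain factor, holds trophoblast in a stem-like state in the mouse and directs the milk-producing epithelium of the mammary gland. GCM1, a factor with a glial cells missing DNA-binding domain, directs the final differentiation of trophoblast in the mouse and human placenta. The endometrium is maternal tissue with luminal and glandular epithelium, stroma, vessels and leukocytes, and in pregnant cows of these days the elongating conceptus lies against it.

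The probe sequences are shown because each transcript was seen through 1 short sequence alone. They are printed 5′ to 3′, with capitals marking the longest run of bases that the probe shared with any other probe of the array on either strand. In each case that run was 12 bases of a 60-base probe, and the other probe had no gene symbol. For ELF5 the first 30 bases are given.

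ELF5, probe for NM_001024569: TGAACCGCAAGAtagactgagggcctccat

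CDX2, probe for XM_871005: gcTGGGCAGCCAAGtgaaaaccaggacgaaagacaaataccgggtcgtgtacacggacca

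GCM1, probe for AY173016: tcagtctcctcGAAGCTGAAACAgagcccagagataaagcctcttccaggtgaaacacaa

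In the RefSeq annotation of ARS-UCD2.0, the gene before ELF5 is CAT and the gene after it is EHF, another ETS factor. CDX2 lies between URAD and PDX1, and GCM1 between FBXO9 and ELOVL5. Of these 6 neighbors, EHF and FBXO9 had a probe with that name on the array.

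A level is the background-corrected intensity of a spot divided by the median intensity of its array, so that 1 is the level of a typical probe. The scanner software marked whether a spot was well above background, and the lowest signal that passed was 0.0196 to 0.0518 array medians on the 7 arrays of day 15 and 0.0661 to 0.180 on the 8 arrays of day 18. Low levels were therefore harder to see on day 18. Arrays of the same group correlated at 0.945 to 0.989 over all probes, array medians lay between 315 and 838 intensity units, and 65.6 to 88.3% of probes were well above background. The arrays were read on 6 scan days and none held more than 1 group, so that scan day and group cannot be told apart. Epithelial markers were present: all 11 measured, among them KRT7 and KRT8, were well above background on all NP15 and P15 arrays, and 10 of them on all arrays of NP18 and of P18. The exception was KRT7, which was not well above background in NP18 replicate 1 and in P18 replicates 1 to 3.

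Transcripts of ELF5 were more abundant in NP18 than in NP15 and less abundant in P18 than in NP18. ELF5 was the best measured of the 3 genes, with spots well above background on 13 of 15 arrays. CDX2 was well above background in all 3 P15 cows and in no other cow, but the lowest signal that passed differed between groups. It was 0.0196, 0.0518 and 0.0202 array medians in P15 replicates 1 to 3, and 0.0304 to 0.0475 in NP15. The mean CDX2 value was 0.0612 in P18, where no spot passed, and 0.0559 in P15. GCM1 passed in 1 cow each of NP15, P15 and NP18.

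In NP15 the ELF5 level was 0.109, 0.0568, 0.0772 and 0.163 array medians in replicates 1 to 4. In P15 it was 0.173, 0.291 and 0.0556 in replicates 1 to 3. These ranges overlap, since the third P15 cow lay below every NP15 cow and the second above all of them. In NP18 the ELF5 level was 0.518, 0.625, 0.188 and 1.40, so that all 4 cows were above every cow of NP15 and the fourth stood highest. In P18 it was 0.113, 0.141, 0.0707 and 0.114, and every P18 cow was below every NP18 cow. Only P18 replicates 2 and 4 had an ELF5 spot well above background, so that the low values of that group were partly at the limit of the arrays.

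**Figure D1:**
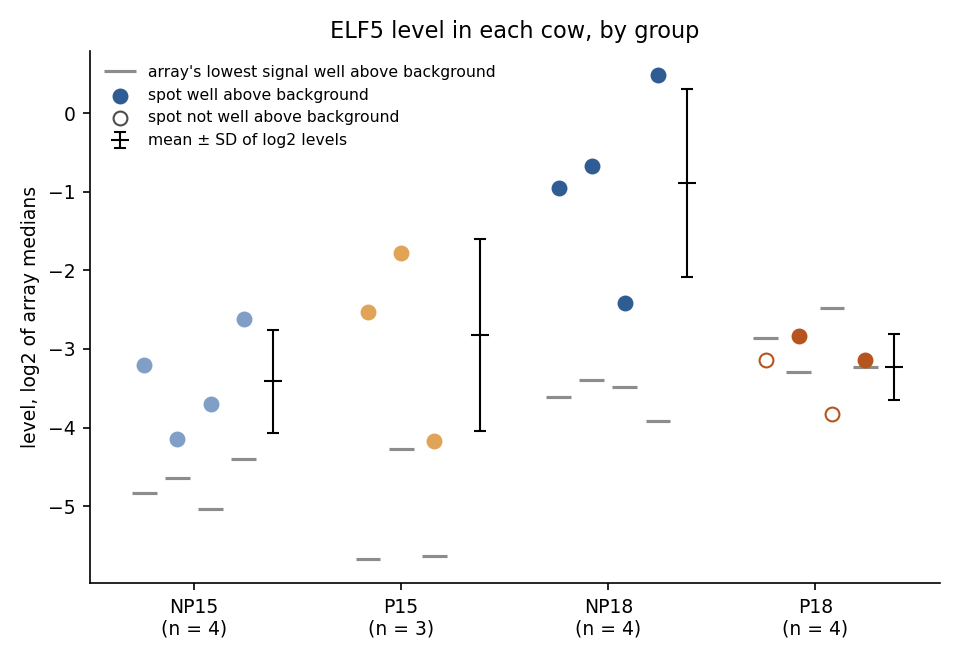
ELF5 level of each cow (log2 of array medians, vertical axis) in NP15, P15, NP18 and P18. Filled points are spots well above background, open points are spots that were not, gray bars are the lowest signal well above background on the same array, and black bars are the mean and SD of the log2 levels. The 4 NP18 cows, at 0.188 to 1.40 array medians, lie above the 4 P18 cows at 0.0707 to 0.141.

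The mean ELF5 level was 0.101 ± 0.0464 (SD, n = 4) in NP15, 0.173 ± 0.118 (SD, n = 3) in P15, 0.682 ± 0.513 (SD, n = 4) in NP18 and 0.110 ± 0.0289 (SD, n = 4) in P18. Between pregnant and non-pregnant cows of day 18, ELF5 fell by 2.34 on the log2 scale (SE 0.58, adjusted p = 0.0262 by limma), which is a 5.07-fold lower measured level in P18. That fold rests partly on values below the limit. In P18 replicates 1 and 3 ELF5 was 0.113 and 0.0707, where the lowest signal that passed was 0.138 and 0.180. A gene was called when its adjusted p was below 0.05 and its fold change over 2, and ELF5 was called here. Of all probes tested, 5.77% were called in this comparison, and 2.11% were called lower (278 of the 759 called, against 421 of 826 with quantile normalization). The groups did not overlap, as was the case in this direction for 5.84% of all probes tested. An exact permutation test (two-sided, on mean log2 levels) gave p = 0.0286, the smallest that 4 against 4 arrays can give.

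The ELF5 call on day 18 was lost with scan day as a random block (adjusted p = 0.680 by limma) and with the methods' t-test after Benjamini-Hochberg adjustment (0.126). NP18 and P18 were each read on 1 scan day, so that the block cannot decide on this call. With it, 49 probes were called in all, against 759. Without NP18 replicate 2 or 4, or P18 replicate 2 or 3, the adjusted p of limma rose to 0.0577, 0.0702, 0.0501 and 0.0846, while the difference stayed between -2.48 and -1.89. With normexp background correction, which compresses low signals, the ELF5 difference was -1.30 on the log2 scale (adjusted p = 0.0289 by limma).

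In non-pregnant cows, ELF5 rose by 2.52 on the log2 scale from day 15 to day 18 (SE 0.58, adjusted p = 0.0151 by limma), or 5.75-fold. The groups did not overlap, and the exact permutation p was again the smallest possible, 0.0286. In this comparison 7.16% of all probes tested were called and 2.89% were called higher (381 of the 942 called, against 256 of 1001 with division by the 75th percentile), and 5.94% did not overlap in this direction. Leaving out each array in turn gave an adjusted p of at most 0.0464 by limma. The call was lost with scan day as a random block (adjusted p = 0.250 by limma), with only those groups in the fit (0.0636) and with the methods' t-test after Benjamini-Hochberg adjustment (0.147). No scan day held both groups, so that the block cannot decide here either. With it, 54 probes were called in all. With normexp background correction the ELF5 rise was 1.38.

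On day 15, ELF5 differed by 0.59 on the log2 scale between P15 and NP15 (SE 0.62, adjusted p = 0.708 by limma), less than the spread between cows, and the exact permutation p was 0.457. In this comparison 0.798% of all probes were called, a share that rested on single arrays: the count of 105 was 4 without P15 replicate 1 or 3 and 345 without NP15 replicate 3. From P15 to P18, ELF5 was lower by a difference of -0.40 (SE 0.62, adjusted p = 0.692 by limma), in a comparison in which 11.9% of probes were called. The pregnancy difference in ELF5 on day 18 minus that on day 15 was -2.93 (SE 0.85, adjusted p = 0.0753 by limma). It did not pass the threshold, so that ELF5 was not shown to respond differently to pregnancy on the 2 days, although 2.72% of all probes were called for that difference.

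Ordered by mean log2 level, ELF5 was lowest in NP15, then P18, P15 and NP18. The first 3 did not differ from each other beyond their spread, with P18 minus NP15 at 0.18 (adjusted p = 0.846 by limma). NP18 stood 1.94 above its neighbor P15, which also missed the threshold (SE 0.62, adjusted p = 0.0850 by limma, with 1.56% of probes called), so that NP18 differed from NP15 and P18 only.

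**Figure D2:**
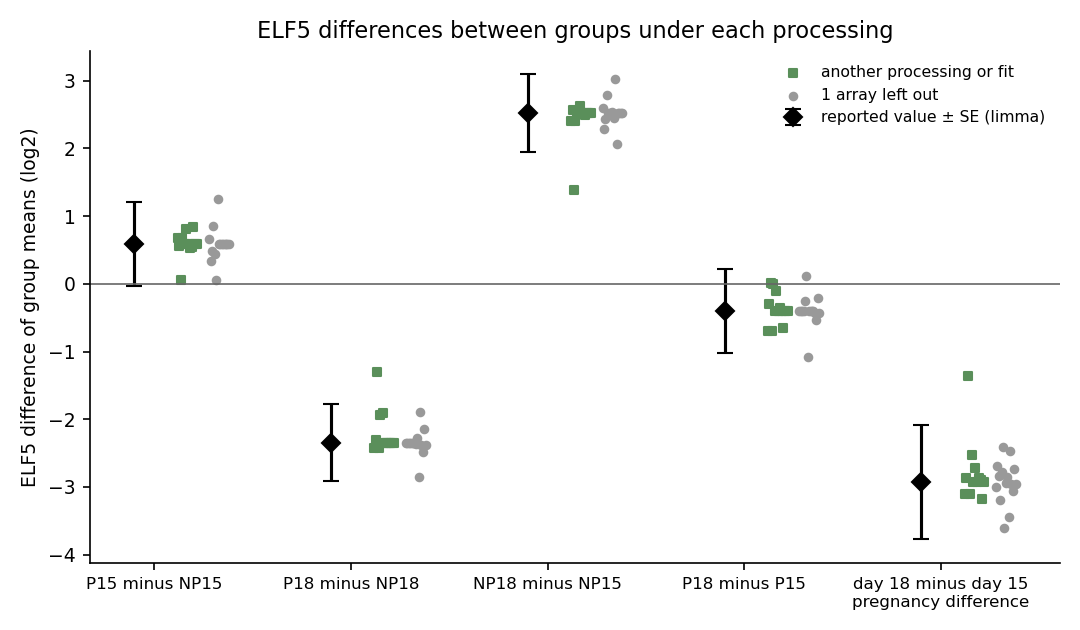
Differences in ELF5 between groups (log2, vertical axis) for 4 comparisons and for the pregnancy difference on day 18 minus that on day 15. Black diamonds are the reported values with the SE of limma, green squares the same difference under other processing or fits, and gray points the difference with 1 array left out. P18 minus NP18 stays below 0 and NP18 minus NP15 above 0 in all of these, with the values nearest 0, -1.30 and 1.38, from normexp background correction.

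Because whole pieces of tissue were measured, fewer cells of a type and less RNA per cell cannot be told apart. The summed level of the 11 epithelial markers was 148 to 407 array medians in NP18 and 244 to 350 in P18. None of the 11 was called between these groups, where 5.77% of all probes tested were called. KRT7, a keratin of simple epithelia, ranged from 0.0376 to 1.90 in NP18 with its highest value in replicate 4, the cow with the highest ELF5, and from 0.0367 to 0.149 in P18. Its lowest NP18 value, in replicate 1, was not well above background, while ELF5 was 0.518 in that cow. In P18 only replicate 4 had a KRT7 spot well above background. The 0.0367 of P18 replicate 3 was also the value of CDX2 and GCM1 on that array. The median day 18 difference of the 11 markers was -0.37, against 0.07 over all probes. Of the 11, only 4 had differences above 0. These were KRT8, EPCAM, CLDN4 and OCLN, at 0.18 to 1.14, none of them called. Over all 15 arrays, which share groups and scan days, the correlation of ELF5 with single epithelial markers lay between -0.51 for CLDN4 and 0.64 for CLDN7, both tight junction genes. After each group mean was removed, these correlations were -0.23 and 0.65. For KRT7 the correlation was 0.50 over all arrays and 0.19 within groups.

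Markers of other cell types were counted in the same comparison, in which 2.11% of all probes were called lower. Of the 4 smooth muscle genes measured, ACTA2 and CNN1 were called lower in P18, and the summed level was 95.6 to 414 in NP18, again highest in replicate 4, and 54.4 to 137 in P18. Of 9 stromal markers, COL1A1 and ESR1 were called lower in P18, of 6 endothelial markers PECAM1 and TIE1, and of 9 leukocyte markers none, and no marker of these 4 types was called higher. Not all stromal markers were lower in P18, with DCN at 0.16 and PDGFRA at 0.44 without a call. Between NP18 and NP15, where 7.16% of all probes tested were called, 1 stromal marker was called higher and 1 leukocyte marker lower. No epithelial, endothelial or smooth muscle marker was called there. In NP15 the summed level was 283 to 358 for epithelium and 104 to 210 for smooth muscle, narrower than in NP18. The part of these cell types in either ELF5 difference was not tested.

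Trophoblast products were read from a list of interferon tau, trophoblast Kunitz domain proteins, pregnancy-associated glycoproteins and others. Of 18 measured, 12 were tested and 9 were called higher in P18 than in NP18, against 3.65% of all probes called higher, and for those 9 no NP18 spot was well above background. Their summed level was 0.394 to 0.788 array medians in NP18, and in P18 it was 1.68 in replicate 1, 162 in replicate 2, 103 in replicate 3 and 765 in replicate 4. ELF5 in those 4 cows lay between 0.0707 and 0.141, within the NP15 range of 0.0568 to 0.163 and below every NP18 cow, and the part of trophoblast RNA in these values was not tested. Without P18 replicate 1, the cow with little trophoblast signal, ELF5 in P18 minus NP18 was -2.37 on the log2 scale (adjusted p = 0.0437 by limma).

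CDX2 was dim throughout. In NP15 its value was 0.00713, 0.0232, 0.0145 and 0.0107 array medians in replicates 1 to 4, none of them well above background. That of replicate 1 was a surrogate, which the software gives to spots at background. In P15 it was 0.0328, 0.0838 and 0.0510 in replicates 1 to 3, all well above background. Every P15 cow thus lay above every NP15 cow, as was the case in this direction for 5.93% of all probes tested. The level of P15 replicate 1, 0.0328, was below the lowest signal that passed on NP15 replicates 1, 2 and 4 (0.0351, 0.0399 and 0.0475).

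Since NP15 gave only a bound, the P15 mean was set against the lowest signal well above background on each NP15 array. By that measure CDX2 was at least 1.38-fold higher in P15 than in NP15, and the bound stayed between 1.08 and 1.73 when each array of the 2 groups was left out in turn. With normexp background correction the direction of the CDX2 difference turned (adjusted p = 0.711 by limma). CDX2 did not pass the test on day 15 (adjusted p = 0.0921 by limma), and the exact permutation p was 0.0571, the smallest that 3 against 4 arrays can give. It had entered the tests only through the 3 P15 arrays, the least number that the filter allowed.

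On day 18 no CDX2 spot was well above background in either group, so that no fold is given. The values were 0.0183, 0.0536, 0.0182 and 0.0134 in NP18 and 0.0351, 0.0740, 0.0367 and 0.0991 in P18, in the order of the replicates. Those of NP18 replicates 3 and 4 and of P18 replicate 3 were surrogates at background. The ranges overlap, and limma gave an adjusted p of 0.120. The 2 highest P18 values belonged to replicates 2 and 4, which also had the highest sums of trophoblast products, but the lowest signal that counted as well above background was 0.102 and 0.106 on those arrays. The P15 mean of CDX2 was below the lowest signal well above background on every array of day 18, so that no bound above 1 could be given against NP18 or P18.

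By mean log2 level CDX2 was lowest in NP15, then NP18, P15 and P18. P18 and P15 had mean levels of 0.0612 ± 0.0310 (SD, n = 4) and 0.0559 ± 0.0259 (SD, n = 3), and NP18 and NP15 of 0.0259 ± 0.0186 (SD, n = 4) and 0.0139 ± 0.00690 (SD, n = 4). None of the 3 neighboring pairs passed the test, and the adjusted p was lowest between NP18 and P15, at 0.170 by limma. P18 and NP15, at the ends of the order, passed the test (adjusted p = 0.00733 by limma), where 15.7% of all probes were called. Neither group had a CDX2 spot well above background. Values at background themselves differed between groups. NANOG, well above background on no array, had means of 0.00778 in NP15, 0.00621 in P15, 0.0169 in NP18 and 0.0268 in P18. Outside P15, the order of CDX2 is therefore one of values not well above background.

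GCM1 was likewise near background. Its level in NP15 was 0.0271, 0.0208, 0.0431 and 0.0148 array medians, of which replicate 3 was well above background. In P15 it was 0.0141, 0.0188 and 0.0323, of which replicate 3 again passed. The ranges overlap, and P15 and NP15 did not pass the test (adjusted p = 0.858 by limma, exact permutation p = 0.629). No size is given, since 1 spot of each group was well above background.

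In NP18 the GCM1 level was 0.113, 0.0193, 0.0597 and 0.0329, and replicate 1, the highest of all 15 cows, was the spot that passed. In P18 it was 0.0401, 0.0510, 0.0367 and 0.0393, none well above background. The values 0.0193 of NP18 replicate 2 and 0.0367 of P18 replicate 3 were surrogates that the software gives to spots at background. CDX2 also had the value 0.0367 in P18 replicate 3. NP15 and NP18, with 1 such spot each and overlapping ranges, did not pass the test either (adjusted p = 0.220 by limma). Between P18 and NP18 limma gave an adjusted p of 0.891, and no fold is given because the detection limit in P18 was above the NP18 mean of 0.0563 ± 0.0415 (SD, n = 4).

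**Figure D3:**
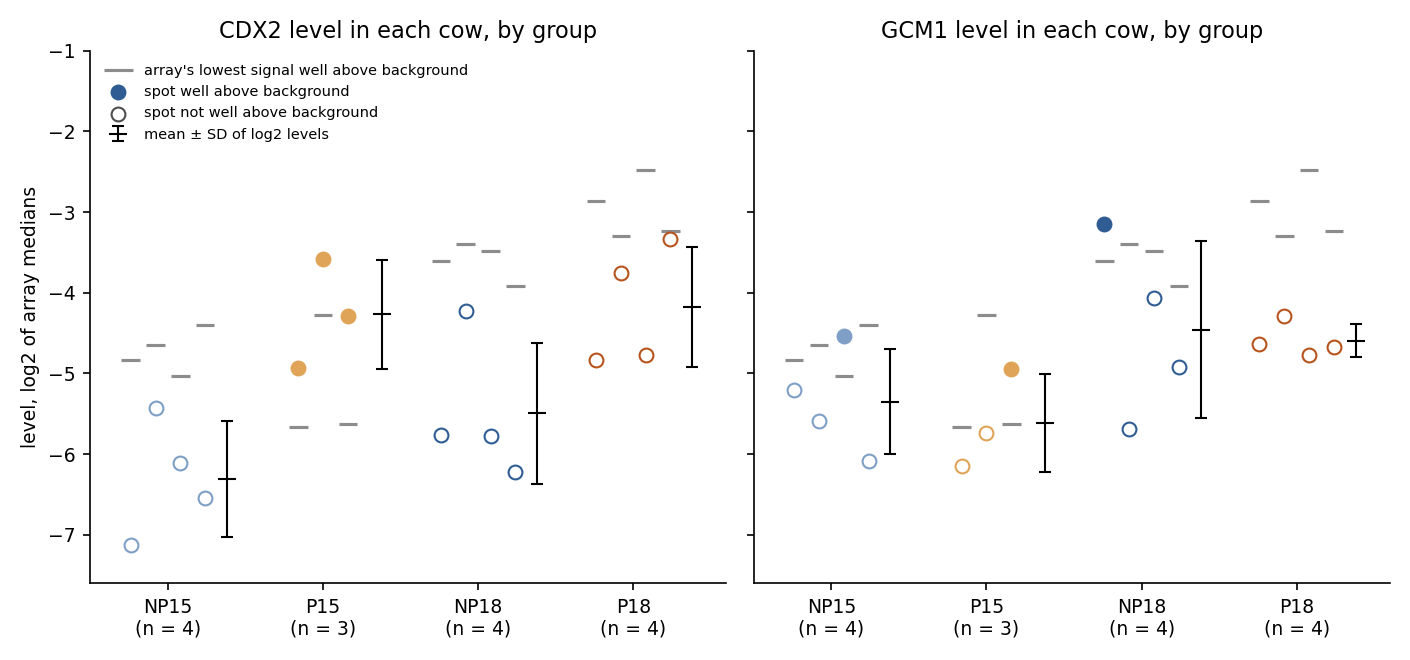
CDX2 (left) and GCM1 (right) level of each cow (log2 of array medians, vertical axis) by group, with filled and open points for spots well above background and not, gray bars for the lowest signal well above background on each array, and black bars for the mean and SD of the log2 levels. CDX2 is filled in the 3 P15 cows and in no other, and most GCM1 points lie below the gray bars, which are higher on day 18.

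By mean log2 level GCM1 was lowest in P15, then NP15, P18 and NP18, and no pair among the 4 groups passed the test, with limma adjusted p from 0.175 to 0.891. NANOG, well above background on no array, was also lower in both groups of day 15 than in both groups of day 18. The correlation of GCM1 with the lowest signal well above background on each array was 0.44. This order of GCM1 is therefore mostly one of values at background. Over the 15 arrays the correlation of log2 levels was -0.09 between ELF5 and CDX2, 0.07 between ELF5 and GCM1 and -0.03 between CDX2 and GCM1. Within groups the same 3 correlations were -0.03, -0.44 and -0.20. CDX2 and GCM1 were near background on most arrays, so these values cannot show whether the 3 transcripts vary together.

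The genes whose log2 levels followed ELF5 most closely over the 15 arrays were CGREF1, a secreted growth regulator (r = 0.85), RCN1, a calcium-binding protein of the endoplasmic reticulum (r = 0.84), UGDH, which makes UDP-glucuronate (r = 0.84), SEC22B, a vesicle SNARE (r = 0.83), and CFDP2 (r = 0.82). Within groups, after each group mean was removed, these correlations were 0.61 to 0.72. Because these genes were picked for following ELF5 over the same arrays, their likeness in group means is part of that choice. CGREF1 was called in both comparisons in which ELF5 was: its mean level was 1.10 in NP15, 1.44 in P15, 3.48 in NP18 and 0.839 in P18, with P18 minus NP18 at -1.94 (adjusted p = 0.00338 by limma). RCN1 was called higher in NP18 than in NP15, at 1.28, and the other 3 were called in neither comparison. Over the whole array 278 probes were called lower in P18 than in NP18 and 381 higher in NP18 than in NP15. The overlap was 46 probes, 16.5% of the first and 12.1% of the second, in comparisons that share the NP18 cows.

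**Figure D4:**
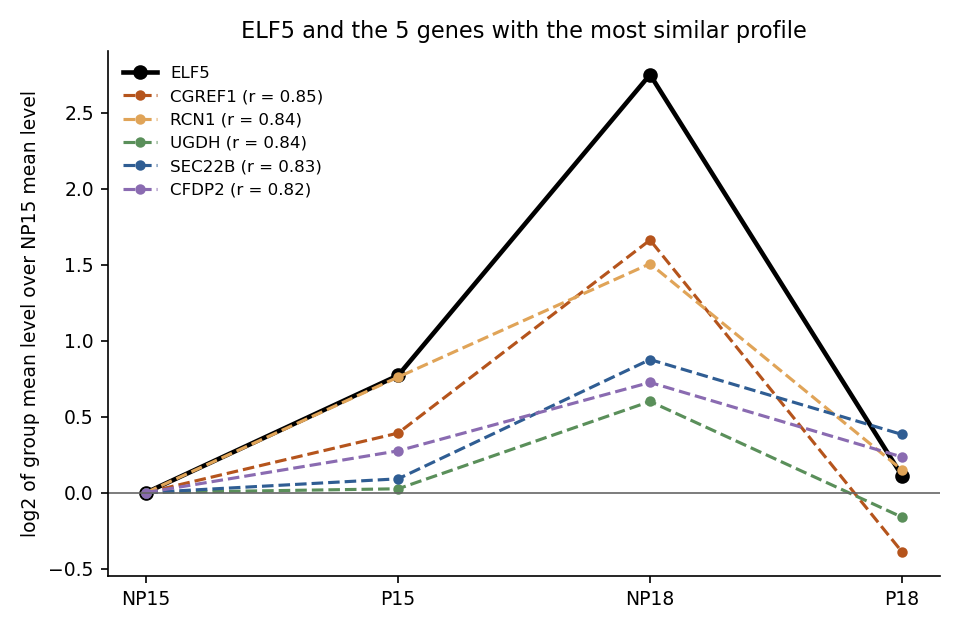
Mean level of ELF5 and of the 5 genes most like it (log2 of each group mean over the NP15 mean, vertical axis) in the 4 groups. Lines join the group means of a gene, and all 6 peak in NP18, as genes picked for a profile like that of ELF5 would, with ELF5 the highest there.

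For CDX2 the most similar genes were PROKR1, NEUROG2, TFAP2A, CBLN3 and NTM, with r from 0.76 to 0.82. Within groups these correlations were 0.36, for TFAP2A, to 0.57. CDX2 itself was well above background on 3 of the 15 arrays. The genes were picked for following CDX2 over the same arrays, so that their likeness in group means is part of that choice. PROKR1 and NEUROG2 were themselves well above background on only 3 arrays. TFAP2A, an AP-2 factor of trophoblast and epidermis, had mean levels of 0.0400 in NP15, 0.112 in P15, 0.0492 in NP18 and 0.119 in P18, and was well above background in 1, 3, 0 and 2 cows of those groups. For GCM1, also well above background on 3 arrays, the genes picked in this way were CFP, DOCK4, SVIL, SYT11 and EIF5. Their r was 0.68 to 0.76, and 0.43 to 0.74 within groups.

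Among the other ETS factors, 13 of 24 had a probe and all 13 were tested. None was called between P18 and NP18, where 5.77% of all probes tested were called. Their median difference was -0.04, against 0.07 over all probes. With quantile normalization 1 of them was called lower there, with a median of -0.11. From NP15 to NP18, 1 was called higher and none lower, against 2.89% of all probes tested called higher. The median of the 13 was 0.61, against 0.02 over all probes, and 11 of the 13 were above 0. It was 0.49 against -0.10 with division by the 75th percentile, and 0.52 against -0.03 with quantile normalization. Counts of calls this small among 13 genes do not set the family apart from all probes, and the shift of the median was not tested. The gene called was FLI1, a factor of vessels and blood cells, at 1.40 (adjusted p = 0.00738 by limma), which was also the only one called on day 15, where it was 1.60 higher in P15. On day 15, 0.798% of all probes tested were called. EHF, the chromosomal neighbor of ELF5 and like it a factor of epithelia, was present in all cows, at mean levels of 3.46, 1.60, 5.91 and 9.14 in NP15, P15, NP18 and P18. It rose by 2.49 from P15 to P18 (adjusted p = 0.00302 by limma) and differed by 0.80 between P18 and NP18 (adjusted p = 0.237), where ELF5 was called lower. SPDEF, an ETS factor of goblet and secretory cells, had a day 18 difference of -2.23, close to that of ELF5, but its cows spread widely, from 0.507 to 6.07 in NP18 and 0.226 to 1.03 in P18 (adjusted p = 0.126).

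**Figure D5:**
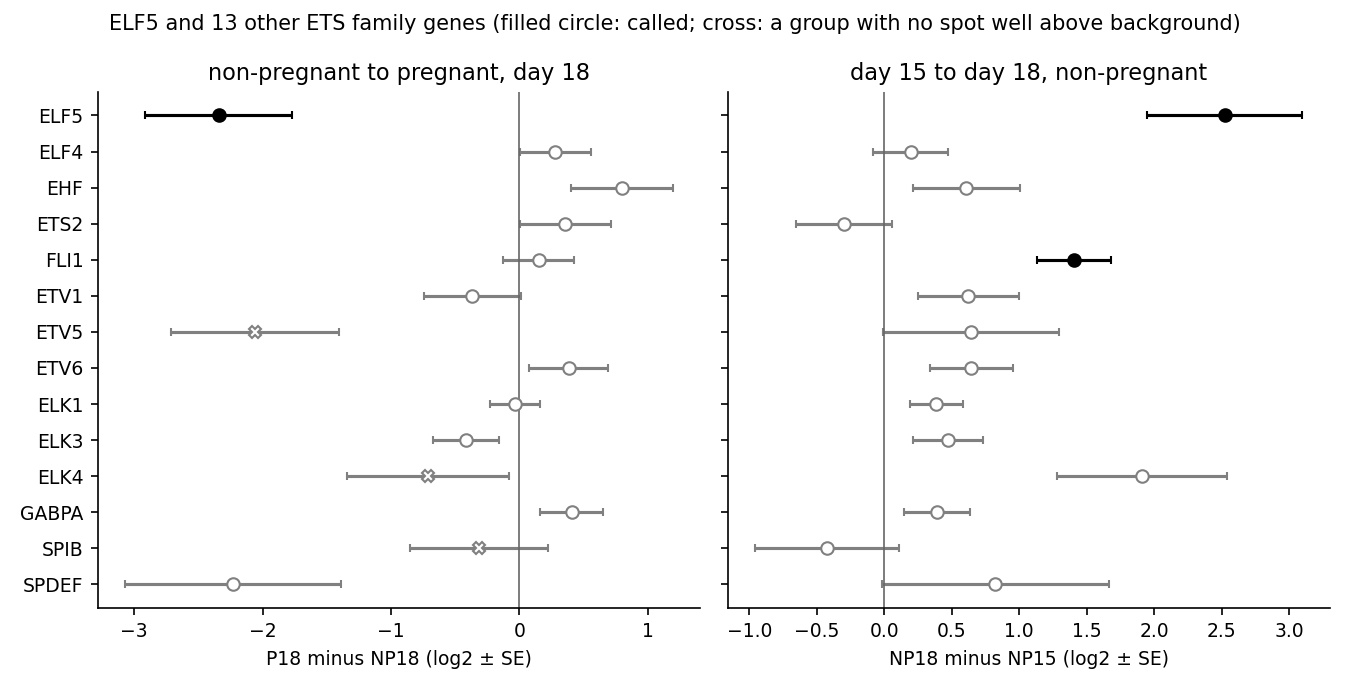
Differences of ELF5 and 13 other ETS family genes (log2 with the SE of limma, horizontal axes) between P18 and NP18 (left) and between NP18 and NP15 (right). Filled circles mark called genes, open circles the others, and crosses genes with no spot well above background in a group (P18 for ETV5, ELK4 and SPIB). With median scaling, ELF5 is the only gene called on the left, where quantile normalization called 1 more, and ELF5 and FLI1 are called on the right.

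Of 27 other trophoblast transcription factors, 14 had a probe and 12 were tested. None was called between P18 and NP18, where 5.77% of all probes tested were called. The median difference of the 12 was -0.09, against 0.07 over all probes. MSX2, a homeobox factor, was called lower in P15 than in NP15, at -2.04 (adjusted p = 0.0281 by limma), and lower in NP18 than in NP15, at -1.71. Of all probes tested, 0.798% and 7.16% were called in these comparisons. ID2, an inhibitor of basic helix-loop-helix factors, was called higher in P18 than in P15, at 1.12, where 11.9% of all probes tested were called. The ID2 call was lost with division by the 75th percentile and with quantile normalization. TFAP2C, which acts beside CDX2 in trophoblast, had levels of 0.384, 0.504, 0.969 and 0.457 in NP15, P15, NP18 and P18, with P18 minus NP18 at -1.35 (adjusted p = 0.168 by limma). HAND1 was well above background on 1 array and NANOG on none.

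Genes linked to the 3 factors in other tissues were read from 3 lists. Of 10 mammary genes linked to ELF5, 9 had a probe and 6 were tested. None was called between P18 and NP18, where 5.77% of all probes tested were called. CSN2, beta-casein, was called lower in NP18 than in NP15, at -1.22 (adjusted p = 0.0132 by limma), a comparison in which ELF5 rose. Of 16 genes of the CDX family and the intestinal epithelium, 9 had a probe and 5 were tested. None of these was called between P15 and NP15, where 0.798% of all probes tested were called. HNF4A, a nuclear receptor of gut and liver, was called lower in NP18 than in NP15, but no NP18 spot was well above background. VIL1, the microvillus protein villin, was called higher in P18 than in P15, at 1.40 (adjusted p = 0.0127 by limma), with 1 of 4 P18 spots well above background. Between P18 and P15, 11.9% of all probes tested were called. MUC2, SI, FABP2 and GPA33, which mark intestinal epithelium, were well above background on no array. Of 10 placental genes linked to GCM1, 4 had a probe and 3 were tested, and PGF, HSD11B2 and FBXW2 were called in none of the 4 comparisons between days or states. Over the 14 tested genes of these 3 lists, 2 were called in NP18 minus NP15, in which 7.16% of all probes were called.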

How the data were processed

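RNA of caruncular endometrium was hybridized to a custom bovine array of 60-base probes, 1 array per cow. The deposited scanner tables, made by the authors with Agilent Feature Extraction 9.5, hold an intensity per spot, background-subtracted and detrended within the array, with a surrogate at background and no scaling between arrays. A second deposited table gave log2 values by the authors, which matched the log2 of the same intensities minus nearly the 75th percentile of each array and served as an alternative.

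Following the methods, intensities were scaled to the array median (15208 probes, controls excluded) before log2 was taken. Outlier-flagged spots were left out. The 13161 probes well above background on at least 3 of 15 arrays were fitted with limma 3.58.1 (R 4.3.3), with 1 mean per group and moderated variances, and p-values were adjusted by Benjamini-Hochberg over all of them. Genes were called at an adjusted p below 0.05 and a fold over 2. limma replaced the methods' t-test. Exact two-sided permutation tests used scipy 1.17.1. A gene on several probes was read from its brightest. The named genes were the 3 factors, every list gene that passed a test and up to 4 others per list in list order, and the 5 genes with the highest correlation to each factor. SPDEF, NANOG, FABP2, GPA33, CLDN4, CLDN7 and the ETS genes of the plot were named after their values were seen. Of the probes, 6945 had a symbol (6645 distinct). The listed SYN1 was left out, since its probe is for synapsin I. The members and lists were chosen with earlier results of these data known. The procedure was tested on simulated data. The number of arrays limits the precision.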

Additional observations from a re-analysis of the deposited data

How the results depend on the processing

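The ELF5 differences of P18 minus NP18 and NP18 minus NP15 kept their sign under every alternative run, and leaving out each array in turn gave log2 differences of -2.85 to -1.89 and 2.07 to 3.03. With scan day as a random block the values were -2.34 and 2.49, and by the methods' t-test after adjustment -2.34 and 2.52; neither passed. NP18 minus NP15, at 2.52, also missed it when only those groups were fitted. The change of ELF5 with pregnancy on day 18 minus that on day 15 passed with array weights, at -2.72, and without 1 array it ranged from -3.60 to -2.41 and passed without P15 replicate 3 or NP18 replicate 3. Replicate numbers did not pair the cows (correlations of same-numbered arrays from -0.26 to 0.30). With the replicate block that change was -3.18 (adjusted p = 0.0364) and passed, and no other call on the 3 genes changed.

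ELF5 in P18 minus P15 turned to 0.013 with normexp and to 0.0021 with dim spots set to the array's lowest signal well above background, and it ranged from -1.08 to 0.12 with 1 array left out, positive without P15 replicate 2. CDX2 in P15 minus NP15 turned direction with normexp (adjusted p = 0.711), and the methods' t-test gave an unadjusted p of 0.0126. With 1 array left out, CDX2 in P18 minus NP18 had adjusted p from 0.0430 (without NP18 replicate 2) to 0.251. With dim spots set to that lowest signal, which is higher on day 18, CDX2 had adjusted p = 0.0129 for NP18 minus NP15 and 0.00461 for P18 minus P15, and GCM1 0.0144 and 3.0e-04. GCM1 in P18 minus P15 also passed with array weights (0.0230), with only the groups compared (0.0325) and by the methods' t-test before adjustment (0.0241). GCM1 turned direction in NP18 minus NP15 with normexp (0.451), and in P15 minus NP15 without NP15 replicate 3 or P15 replicate 1 (adjusted p from 0.712 to 0.998 with 1 array left out). None of the 3 was well above background on all arrays, so that filter gave no value.

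The all-probe count of calls on day 18, 759, was 1345 with array weights, 476 with only the groups compared, 49 with scan day as a block, and 1158 and 181 by the methods' t-test before and after adjustment. For NP18 minus NP15, 942 became 1528, 157, 54, 1070 and 137, and 1748 with no filter on dim probes. On day 15, 105 became 856, 2, 0 (690 at an unadjusted p under 0.05), 434 and 0 (1678), and 52 and 8 with slide and replicate blocks. With 1 array left out, the counts ran from 4 (without P15 replicate 1 or 3) to 345 (NP15 replicate 3) on day 15, from 428 (P18 replicate 2) to 1045 (NP18 replicate 1) on day 18, from 619 (NP18 replicate 4) to 1568 (NP18 replicate 1) for NP18 minus NP15, from 736 (P15 replicate 1) to 1728 (NP18 replicate 1), beside 1570, for P18 minus P15, and from 59 (P15 replicate 1) to 543 (NP15 replicate 3), beside 358, for the interaction of day and pregnancy. Division by the 75th percentile moved the median of all probes from 0.02 to -0.10 for NP18 minus NP15 and from 0.12 to -0.18 for P18 minus P15. With other scalings and background corrections 0 to 4 of the 5 genes most like each member were shared with the reported ones. Signal over background limits CDX2, GCM1 and, in P18, ELF5.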
